A study of Rattus norvegicus with 2 samples.

Results

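The genes described here regulate apoptosis, the programmed death of single cells, in whole blood of male rats given lavender oil (LO). They were 37 genes, chosen by name for their known roles. A gene was found by matching the transcript accession of each probe to the RefSeq gene table, and 34 of the 37 genes had at least 1 probe among the 8898 genes named on the array. These 34 genes held 43 of the 41009 probes. Pmaip1, Tradd and Ripk1 were matched to no probe.

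Apoptosis runs along a pair of routes that meet at the caspases, proteases that dismantle the cell. In the mitochondrial route, BH3-only proteins sense damage and the loss of growth signals, pro-survival BCL2 proteins hold them in check, and the pore-forming proteins Bax and Bak1 open the outer mitochondrial membrane when that check fails. Released cytochrome c then assembles Apaf1 and Casp9, while Diablo disarms the IAP proteins that restrain caspases. In the death receptor route, Fas recruits Fadd and Casp8, and Cflar blocks that step. In blood this machinery sets the short life of neutrophils, trims activated lymphocytes, and is held back by Bcl2l1 in maturing red cells.

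The LO group was given 5 mg/kg of oil from Lavandula angustifolia in 10% ethanol into the stomach, and the control group 0 mg/kg, that is 10% ethanol alone. Dosing was once a day for 13 days, and blood was drawn on day 14. The age is given as 7 weeks, in the paper's methods for the rats as housed before acclimation and in a figure caption for dosing. The strain is F334 in the growth protocol and in the paper, and Wistar in the strain field of the labels. Blood came from the heart, and the labels name the portal vein beside it. The RNA of 6 rats was combined into 1 pool per group, so there was no spread between rats, and no test between LO and control could be made. On array 1 the LO pool was labelled with Cy5 and the control with Cy3, and on array 2 the dyes were exchanged. Both arrays measured the same 2 pools and count as 1 replicate.

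The identity of the tissue was checked with marker genes of T and B cells, neutrophils, platelets and red cells. Of 30 such genes 17 were matched, and all 17 were well above background for both pools on both arrays. Their LO/control log2 ratio, averaged over the arrays, lay between -0.22 and 0.12. Of the 5 heart muscle markers Actc1 alone reached that status, and of the 4 liver markers Alb alone, on 1 of its probes. Whole blood is a mixture, so a change in the number of cells of a type and a change in RNA per cell cannot be told apart.

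A probe is called measured here when the authors' software rated both pools well above background on each array. Among the apoptosis probes 25 of 43 (58.1%) were measured, beside 49.3% of all probes with a gene symbol and 37.5% of all probes. These 25 probes covered 22 genes. Another 7 genes (Bid, Bmf, Bcl2l11, Apaf1, Endog, Casp8 and Dffb) were above background in some channels, and 5 genes (Bcl2, Bik, Casp9, Casp12 and Tnfsf10) in none by the majority of their spots. None of the 70 spots behind these probes was flagged or saturated (0 flagged, 0 saturated). Signals below are processed intensities, after the authors' background subtraction and LOWESS dye normalization. Signals of different probes are not compared with each other, because each probe binds its target with its own strength. Pools are said to overlap where the ranges of their signals over both arrays overlap. Such a range also holds differences between arrays and dyes, so the ratio within each array is the paired comparison.

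**Figure D1:**
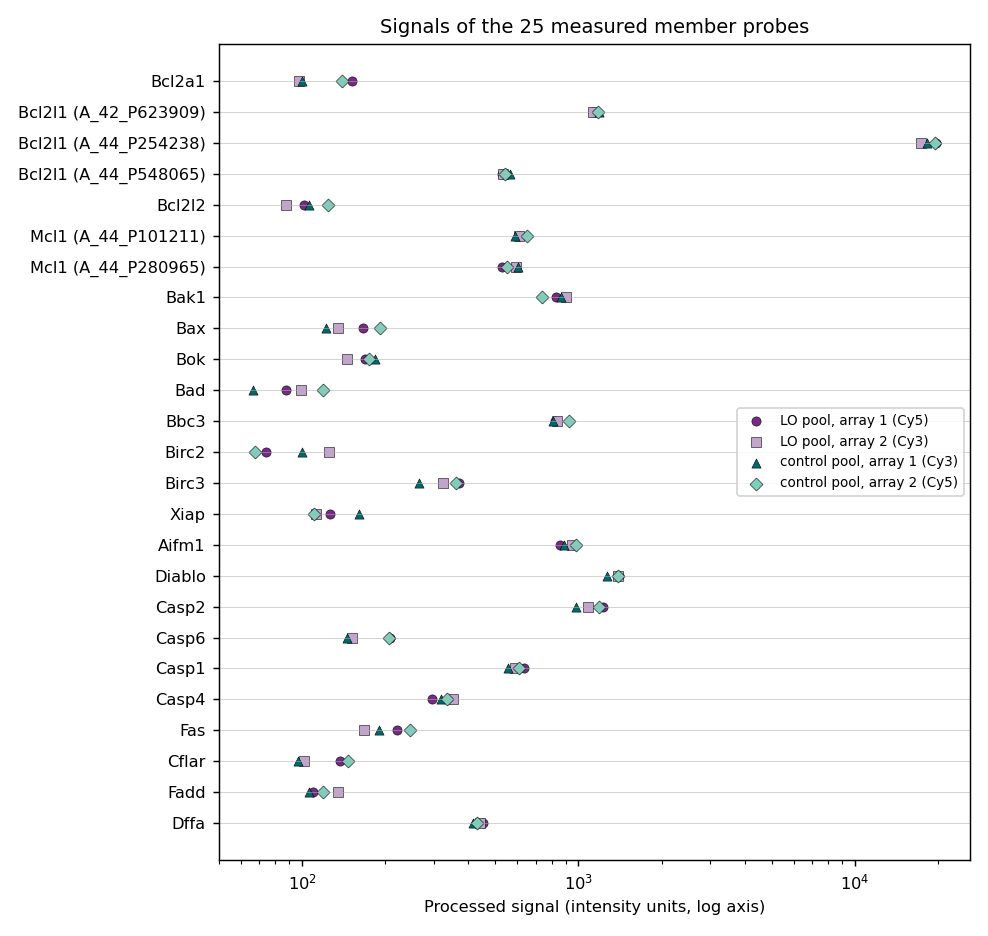
Processed signal (intensity units, log axis) of the 25 measured apoptosis probes, with 1 point for each pool on each array and no error bars. For Casp6, Cflar and Bcl2a1 the Cy5 points (dark circle, light diamond) sit together above the Cy3 points whichever pool they came from, while the points of Bcl2l1 and Aifm1 nearly coincide.

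By the selection rule of the methods (an authors' Feature Extraction p under 0.01 on each of both arrays, with the same pool higher on both) 0 apoptosis probes were higher in the LO pool and 0 were lower. Over the whole array the same rule called 4 probes up (0.00975%) and 5 down (0.0122%). This p is computed from the error of single spots and says nothing about the spread between rats. At a p under 0.05 the counts were also 0 and 0. The methods name limits of 1.5 and 0.75-fold for the genes passed on to the network analysis. These limits were also set on each spot in place of the p, in a reading chosen here. It asked for a Cy5/Cy3 ratio of 1.5 or more on one array with 0.75 or less on the other. Of the 70 spots 0 were selected up and 0 down, while 1.92% of all features were selected. Over the whole array this reading selected 362 features up and 472 down, the same numbers as the genes reported in the paper. The p rule above called far fewer. A value that misses these limits does not show that the pools were equal.

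Each LO/control ratio was split into a part that follows the pool and a part that follows the dye. The LO part is the mean of the log2 ratios of both arrays, in which a dye effect of a probe cancels, and the dye part is their difference divided by 2, positive where Cy5 was brighter. Across the 25 measured apoptosis probes the LO part had a median of -0.02 and ran from -0.29 to 0.23, with 11 above 0 and 14 below. All measured probes of the array (15386) had a median of 0.00 and 48.7% of them lay above 0. The median size of the LO part was 0.070 for the apoptosis probes and 0.061 for all measured probes, and the median size of the dye part was 0.154 and 0.150. The dye part was above 0 in 17 of 25 apoptosis probes, beside 51.6% of all measured probes. The dye part was the larger of both parts in 18 of 25 apoptosis probes, beside 75.6% of all measured probes.

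An error for each LO part was derived from the error of the log ratio that the authors' software gave for each array. It ranged from 0.06 (Bax, averaged over 10 spots) to 0.25 among the 25 probes, with a median of 0.15. The LO part was larger than its error in 3 of them (Bcl2l2, Bok and Birc3), beside 11.3% of all measured probes. It exceeded 1.5-fold (0.58 on the log2 scale) in 0 of 25, beside 0.123% of all. The dye part exceeded 1.5-fold in 1 of 25, beside 6.49% of all. Both arrays gave the same direction in 7 of the 25 probes, 2 up (11.7% of all measured probes) and 5 down (12.7%).

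**Figure D2:**
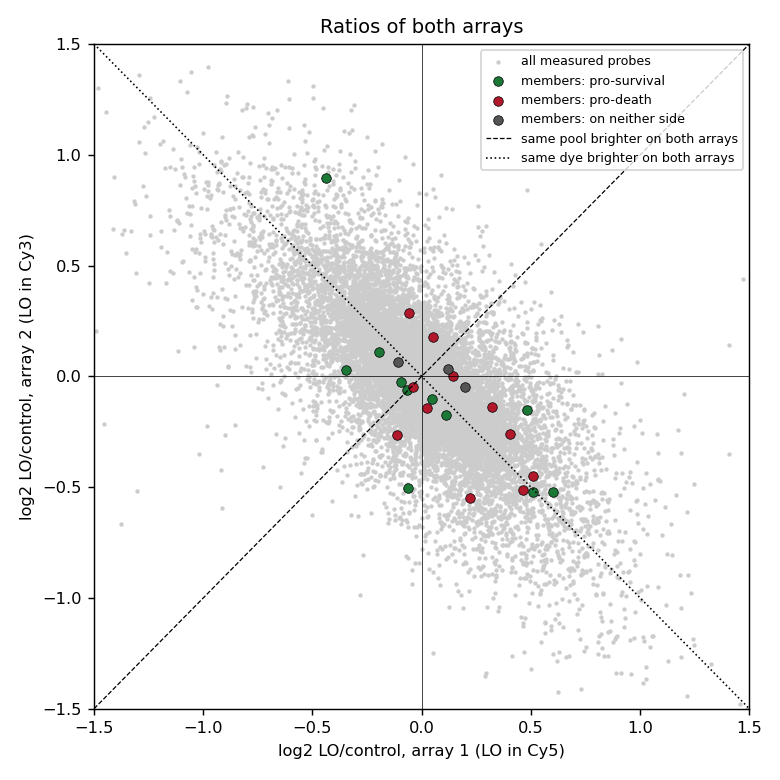
Log2 LO/control ratio of each measured probe on array 1 (LO in Cy5) and array 2 (LO in Cy3), with all measured probes in grey and the 25 apoptosis probes coloured by side; 10 grey probes lie outside the axes. Most coloured points lie near the dotted line on which the same dye is brighter on both arrays, and 7 of the 25 lie in the quadrants where both arrays gave the same direction.

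Of the pro-survival BCL2 proteins, which bind and restrain their pro-death relatives, 4 of 5 genes were measured. Bcl2l1, known as Bcl-xL and the main survival factor of late red cell precursors, had 4 probes. On the probe A_44_P254238 the LO pool gave 19692 on array 1 and 17301 on array 2, and the control pool gave 18234 and 19509. The pools overlap there, with LO/control at 1.08 on array 1 and at 0.887 on array 2. The LO part was -0.03 ± 0.14 (error of the authors' model, log2).

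The probe A_42_P623909 of Bcl2l1 gave 1132 and 1127 for the LO pool and 1184 and 1176 for the control pool. Another probe, A_44_P548065, gave 529 and 532 for LO and 565 and 542 for control. On these probes the LO pool was the lower one on both arrays, by a small margin. Their LO parts were -0.06 ± 0.15 each, within the error, and their dye parts were near 0 (-0.002 and -0.03). All 3 measured Bcl2l1 probes thus had an LO part below 0 and within the error. The remaining Bcl2l1 probe, A_43_P12577, was printed on 10 spots and was well above background in only 1 of its 40 readings.

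Mcl1, a short-lived survival protein on which neutrophils and lymphocytes depend, had 2 measured probes. A_44_P101211 gave 608 on both arrays for the LO pool and 589 and 653 for the control pool. A_44_P280965 gave 528 and 594 for LO and 605 and 550 for control. The pools overlap on both probes. Their LO parts were -0.03 ± 0.15 and -0.04 ± 0.15, and their dye parts, no larger than about that error, were 0.08 and -0.15.

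Bcl2l2, known as Bcl-w, had the lowest LO part of the 25 probes. Its measured probe gave 101 and 87.5 for the LO pool against 106 and 124 for the control pool. The ratio was 0.956 on array 1 and 0.704 on array 2, so the LO pool was lower on both, and nearly all of the difference came from array 2. The LO part was -0.29 ± 0.25, and -0.16 when the signals were instead background-corrected with limma's normexp method and normalized by loess, where Cflar was lower. The second Bcl2l2 probe was well above background in no channel. Bcl2a1, a survival gene induced by inflammatory signals, gave 151 and 97.6 for LO and 99.6 and 140 for control, with ratios of 1.52 and 0.697. Here the Cy5 channel was the brighter one on each array, and the LO part was 0.04 ± 0.21 beside a dye part of 0.56.

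Bcl2, the founding member of the family, was printed on 10 spots and was above background in 3 of 40 readings, so no fold is given. Over the whole pro-survival BCL2 group, 6 of 7 measured probes had an LO part below 0, with a median of -0.04. Bcl2l1 alone provided 3 of these probes. Of all 15386 measured probes of the array 7899 lay below 0. In the group, 3 of the 7 probes were lower in the LO pool on both arrays, and 1 LO part (Bcl2l2) exceeded its error. With normexp and loess the number of LO parts below 0 was again 6 of 7, but with other probes. There Bcl2a1 was just below 0 (-0.003) and the Mcl1 probe A_44_P280965 just above it (0.009).

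The pore-forming proteins were all measured. Bax, which moves from the cytosol into the mitochondrial membrane, was printed on 10 spots, and all 40 readings were well above background. Its mean signal over the spots was 167 on array 1 and 135 on array 2 for the LO pool, and 122 and 191 for the control pool. Every one of the 10 spots had the LO pool higher on array 1, with log2 ratios from 0.21 to 0.70. On array 2 all 10 had it lower, from -0.84 to -0.22. The LO part of the spots averaged -0.03 with an SD of 0.10 over the 10 spots, 4 of them above 0, and the dye part averaged 0.49 with an SD of 0.17. Spots on 1 slide are repeated readings of the same RNA and not replicates of the treatment.

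**Figure D3:**
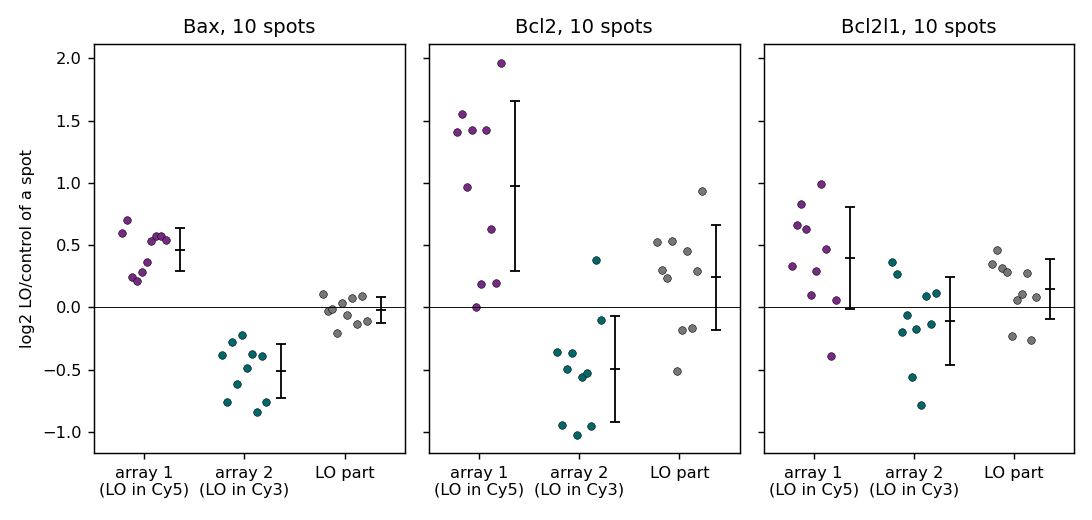
Log2 LO/control ratio of each of the 10 spots of the Bax probe, the Bcl2 probe and the Bcl2l1 probe A_43_P12577 on array 1, on array 2, and as the LO part; the bars give the mean and SD over spots. The Bax spots lie wholly above 0 on array 1 and wholly below 0 on array 2 and gather around 0 as the LO part, while the dim Bcl2 and Bcl2l1 spots scatter widely.

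Bak1, which resides in the membrane from the outset, gave 832 and 901 for the LO pool and 866 and 740 for the control pool. The pools overlap, with ratios of 0.960 and 1.22 and an LO part of 0.11 ± 0.15. Bok, a less studied relative, gave 169 and 146 for LO and 183 and 175 for control. Both LO signals were below both control signals, the ratios were 0.924 and 0.833, and the LO part was -0.19 ± 0.19.

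The BH3-only proteins had the smallest share of measured genes of the roles, 2 of 7, where Pmaip1 had no matched probe. Bbc3, known as PUMA and induced after DNA damage, gave 819 and 839 for the LO pool and 807 and 926 for the control pool. The pools overlap, and the LO part was -0.06 ± 0.15. Bad, whose phosphorylation by growth signals keeps it inactive, gave 87.7 and 99.1 for LO and 66.3 and 119 for control on its measured probe, with ratios of 1.32 and 0.834 and an LO part of 0.07 ± 0.24. Its second probe was above background in 3 of 4 channels.

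Bid, which links the death receptor route to the mitochondria when Casp8 cuts it, was above background in 2 of 4 channels, both in Cy5. Bmf, set free from the cytoskeleton, was above background on array 2 only, for both pools. Bcl2l11, known as Bim and needed for the death of lymphocytes and neutrophils, was above background in the control pool of array 2 only. Its signals were 47.8 and 51.6 for LO and 60.9 and 63.9 for control, and no fold is given, since 3 of the 4 were not well above background. For Bik no channel was above background on either array.

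All 3 IAP genes were measured. Xiap, which binds and inhibits active caspases directly, gave 126 and 113 for the LO pool and 161 and 111 for the control pool. The pools overlap, with an LO part of -0.16 ± 0.20. Birc2 and Birc3 are ubiquitin ligases of the TNF receptor complex. Birc3 gave 369 and 324 for LO and 264 and 360 for control, with ratios of 1.40 and 0.900, and its LO part of 0.16 was barely above its error of 0.16. It was 0.02 with normexp and loess.

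Birc2 had the highest LO part and the largest dye part of the 25 probes. The LO pool gave 73.9 on array 1 and 125 on array 2, and the control pool 100 and 67.4. The ratio was 0.738 on array 1 and 1.86 on array 2, opposite directions, with the Cy3 channel brighter each time. The authors' Feature Extraction p was 0.211 for array 1 and 0.0081 for array 2. Birc2 was the only measured apoptosis probe with such a p under 0.01 on either array, beside 6.3% of all measured probes. The LO part was 0.23 ± 0.24 and the dye part -0.67. With normexp and loess the LO part of Birc2 was 0.11, below that of Bad (0.13).

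Among the mitochondrial and apoptosome factors, Diablo gave 1406 and 1388 for the LO pool and 1273 and 1388 for the control pool. Its LO part was 0.07 ± 0.15. Aifm1, a flavoprotein of the mitochondria that can move to the nucleus in dying cells, gave 860 and 950 for LO and 885 and 981 for control. Both ratios lay just below 1 (0.973 and 0.968), and the LO part was -0.04 ± 0.15 with a dye part of 0.00.

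Apaf1, the scaffold of the apoptosome, was above background in all channels except the control pool on array 1. The LO pool gave 146 and 114, and the control pool gave 62.1 and 166. On array 1 alone Apaf1 passed the threshold of 0.01, with an authors' Feature Extraction p of 0.00134 and a ratio of 2.34. On array 2 the ratio was 0.686 and the authors' p 0.0606. The ratio on array 1 rests on the dim control signal. Endog, a mitochondrial nuclease, was likewise dim only in the control pool on array 1, with 71.5 and 69.6 for LO and 56.3 and 118 for control.

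Of the initiator and executioner caspases Casp2 and Casp6 were measured. Casp2 gave 1225 and 1081 for the LO pool and 982 and 1191 for the control pool, and the pools overlap. Casp6 gave 207 and 151 for LO and 146 and 207 for control, so that its signals went in pairs by dye and not by pool. The LO parts were 0.09 ± 0.15 and 0.03 ± 0.18. Casp8, the initiator of the death receptor route, was above background in the 2 Cy5 channels only. Casp9, the initiator of the mitochondrial route, was above background in no channel on either of its probes.

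The inflammatory caspase family processes interleukin precursors and opens membranes in infected cells. Casp1 gave 637 and 589 for the LO pool and 556 and 609 for the control pool, with an LO part of 0.08 ± 0.15. Casp4 gave 296 and 351 for LO and 318 and 336 for control, with an LO part of -0.02 ± 0.16. In neither gene did the pools separate. Casp12 was above background in no channel.

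In the death receptor route, Fas gave 220 and 168 for the LO pool and 189 and 246 for the control pool on its measured probe. The ratios were 1.16 and 0.684, and the LO part was -0.16 ± 0.17. The other Fas probe and the single probe of Tnfsf10, the death ligand TRAIL, were above background in no channel. Fadd, the adaptor between Fas and Casp8, gave 110 and 135 for LO and 106 and 119 for control. The LO pool was the higher one on both arrays, with ratios of 1.04 and 1.13 and an LO part of 0.12 ± 0.21. Normexp background correction with loess turned the LO part of Fadd to -0.03. Cflar, which competes with Casp8 for Fadd, gave 137 and 102 for LO and 96.4 and 147 for control. Its ratios of 1.42 and 0.696 nearly cancel, and the LO part was -0.01 ± 0.21 beside a dye part of 0.52. Normexp with loess gave Cflar an LO part of -0.20, the largest shift of the 25 probes.

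**Figure D4:**
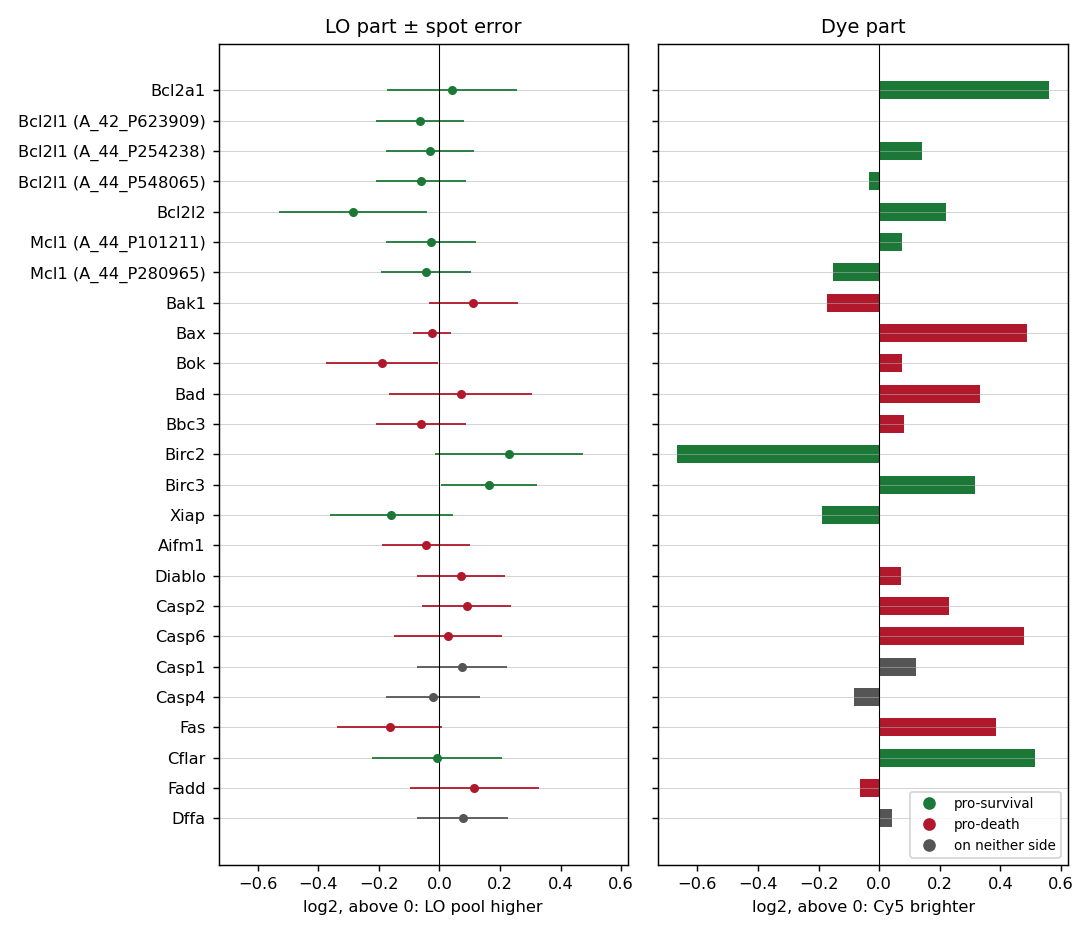
LO part with the error of the authors' model (left, log2, above 0 where the LO pool was higher) and dye part (right, log2, above 0 where Cy5 was brighter) of the 25 measured apoptosis probes, coloured by side. The error bar misses 0 for Bcl2l2, Bok and Birc3 only, and the longest dye bar is that of Birc2 at -0.67.

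Dffa and Dffb together form the factor that cuts nuclear DNA in dying cells, with Dffa as inhibitor and chaperone of the nuclease Dffb. The Dffa probe A_44_P525020 was measured, with 453 and 440 for the LO pool and 417 and 429 for the control pool, and an LO part of 0.08 ± 0.15. The Dffa probe A_42_P543374 gave 44.5 and 89.8 for LO and 106 and 37.5 for control, above background in the 2 Cy3 channels only. It passed the p threshold on both arrays (authors' Feature Extraction p of 0.00272 and 0.00695) in opposite directions, with ratios of 0.421 and 2.39. It was the only apoptosis probe, 1 of 43, that passed on both arrays towards the same dye, beside 2.64% of all probes. Its dye part was -1.25 and its LO part 0.01, while the other Dffa probe had a dye part of 0.04, so the probes of this gene differed in the part that follows the dye. Dffb was dim only in the control pool on array 1.

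Each array read alone would have named other genes. On array 1 Apaf1 was higher and Dffa (A_42_P543374) lower in the LO pool at a p under 0.01, 2 of 43 probes, beside 5.95% of all probes. On array 2 Birc2 and the same Dffa probe were higher and Bik was lower, 3 of 43, beside 6.29%. In all 4 genes the direction was opposite on the other array, where the dyes were exchanged. The cause was not tested. Bik had LO signals of 54.2 and 11.2 and control signals of 11.9 and 60.4, none of them well above background.

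The members were also set apart by the direction of their action. The pro-survival side held the pro-survival BCL2 proteins, the IAP proteins and Cflar, with 8 of 9 genes measured on 11 probes. The pro-death side held 23 genes, of which 11 were measured, on 11 probes. Casp1, Casp4, Casp12, Ripk1 and Dffa were put on neither side. The median LO part was -0.03 for the pro-survival probes (3 above 0, 8 below) and 0.03 for the pro-death probes (6 above, 5 below). For all measured probes it was 0.00, with 48.7% above 0. With normexp the pro-death probes split 5 above and 6 below. Median centring without LOWESS gave 3 above and 8 below, while it moved the median of all measured probes to -0.07.

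The difference of the medians, pro-survival minus pro-death, was -0.06 on the log2 scale. It was -0.21 on array 1 and 0.04 on array 2, opposite directions, and the SD over both arrays was 0.17. This SD also holds the dye parts, which cancel in the LO part of each probe, so it does not measure the precision of the -0.06. That precision was not tested. The LO parts of the pro-survival probes ran from -0.29 to 0.23 and contained the whole range of the pro-death probes, from -0.19 to 0.12.

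**Figure D5:**
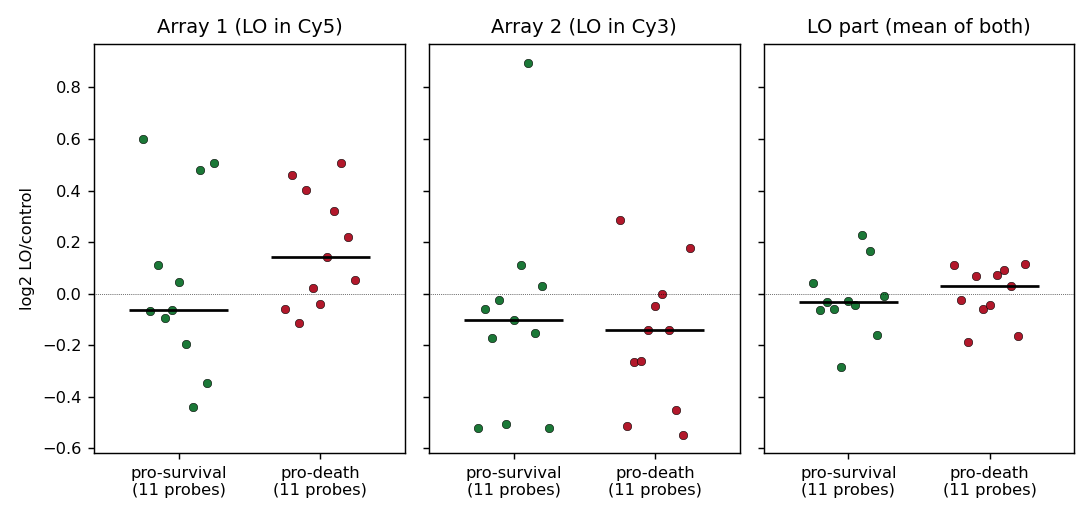
Log2 LO/control ratio of the 11 measured pro-survival and 11 measured pro-death probes on array 1, on array 2 and as the LO part, with the median of each set as a line. The medians lie on either side of 0 on array 1 (-0.06 and 0.14), both below 0 on array 2 (-0.10 and -0.14), and close to 0 in the LO part (-0.03 and 0.03).

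Other genes of cell death were taken from a second list of 29 names, of which 18 were matched and 17 measured. By the p threshold on both arrays 0 of their 25 probes were up and 0 down, and 0 were called towards the same dye. Over the 21 measured probes of this list the LO part had a median of -0.02. It ran from -0.28 ± 0.22 for Bnip3, a BH3 protein of the mitochondria, to 0.31 ± 0.19 for 1 of the Vdac1 probes. On this Vdac1 probe the LO pool was higher on both arrays, with log2 ratios of 0.33 and 0.28. Vdac1 encodes a channel of the outer mitochondrial membrane. The other two Vdac1 probes had LO parts of 0.09 and, above background in 3 of 4 channels, -0.18. Bnip3 gave 153 and 87.5 for the LO pool and 121 and 163 for the control pool, so that the pools overlap. Its log2 ratios were 0.34 and -0.90, opposite directions, with a dye part of 0.62. Cycs, which encodes the cytochrome c that assembles the apoptosome, had 3 measured probes with LO parts of 0.04, -0.04 and -0.02. The measured probe of Cdkn1a, an inhibitor of the cell cycle, had an LO part of -0.09.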

How the data were processed

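Total RNA of whole blood was pooled by group, labelled with Cy3 or Cy5 and hybridised to Agilent rat whole genome arrays. The authors extracted the images with Agilent Feature Extraction 11.0.1.1, which subtracted background and normalized the dyes by LOWESS. The deposited output holds intensities (median, background-subtracted and processed signals), the log10 ratio of Cy5 over Cy3, its error (used as a score of spot precision), the flags for spot quality and a p-value from the error model. The deposited value table, of unstated scale, held log10 ratios that differed from the scanner output by over 0.0001 in 6392 features on array 1 and 5726 on array 2, where the latter was set to 0. Its column medians were 0.0229 and 0.0157, Cy5 over Cy3. No gene names or probe sequences were in the files, and no coordinates are given, since the arrays follow build rn4 and the gene table GRCr8.

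Control spots and features flagged as non-uniform or population outliers (194 on array 1 and 191 on array 2) were dropped. Log ratios were expressed as log2 of LO over control, and the mean ratio and median p were taken over repeated spots. The error of an LO part was the root of the summed squared errors of both arrays, divided by 2. For repeated spots, the error of an array was the root of the summed squared spot errors, divided by the number of spots. This treats the spots as independent and makes the error of such a probe smaller. A multi-spot probe counted as above background in a channel when over 0.5 of its spots were. Accessions without version were matched to gene symbols for 10767 of 41009 probes.

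No comparison was tested between conditions. The number of arrays limits the precision. Every member was to be reported, with values for measured ones and a status for the others. The members and lists, although defined by known roles, were chosen with earlier results of these data known. A few genes of the second cell death list are not reported here. The calling rule and the split into LO and dye parts were tested on simulated ratios. Alternatives were other p thresholds, filters on dim or flagged features, each array alone, the value table, median centring, normexp (offset 50) with loess, gene means and other assignments of sides. The fold limits were chosen after seeing the data. Python 3.11.15, numpy 2.4.6, pandas 2.3.3, matplotlib 3.10.9, R 4.3.3 and limma 3.58.1 were used.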

Additional observations from a re-analysis of the deposited data

How the results depend on the processing

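Precision was limited by 1 pool per group and by signals near background, which left 18 of the 43 probes without a full set of readings. The counts of 0 up and 0 down were also 0 at p thresholds of 0.05 and 0.001, for measured probes, with flagged features kept and by the fold limits, and became 1 to 2 up and 1 down on single arrays. The number of probes following the dye on both arrays went from 1 to 2 with a p threshold of 0.05, to 0 with 0.001 and to 0 among measured probes, since the Dffa probe was dim in 2 channels. The number of measured probes was 25 throughout. The median LO part ranged from -0.06 (median centring, where all measured probes of the array had -0.07) to 0.01 (mean over the probes of a gene), and was -0.10 to 0.05 on single arrays. The median size of the dye part was 0.154, and it moved to 0.100 with normexp and loess, 0.459 with median centring without LOWESS, 0.317 over all 43 probes and 0.180 with gene means. The cause was not tested. The pro-survival minus pro-death difference ranged from -0.09 (median centring) to -0.02 (BCL2 family only), and was -0.21 to 0.04 on single arrays.

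For the LO parts of the 25 measured probes, normexp with loess moved 3 by more than the SD between the arrays and changed the sign of 4, and median centring, which shifted the whole array to -0.07, did so for 3 and 4 (Bad, Casp1, Casp2 and Diablo, all from above to below 0). The largest shifts were 0.19 (Cflar) and 0.13. The SD between the arrays grows with the dye part of a probe, so the counts of 3 say little about the stability of the LO parts. Cflar, with a dye part of 0.52, stayed within that SD. With 1 array alone the sign differed from that of the mean in 10 probes on array 2 and in 8 on array 1. Searching members also by a gene name column was not run, because the scanner output used here has no such column. No paired analysis was possible because both arrays hold the same 2 pools.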
